A study of Mus musculus with 4 samples.

Results

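The replication-dependent histone genes were described in nascent RNA from mouse embryonic stem (ES) cells. Members were the protein-coding rows of the deposited gene table whose names start with Hist1h, Hist2h, Hist3h or Hist4h, which gave 67 of 54146 mouse genes. The other 3 of the 70 rows with such names were pseudogenes and were left out. The study compared 2 libraries labelled Supt3 KO with 2 libraries labelled Supt3 WT, all from ES cells kept in LIF and serum. The Supt3 protein belongs to the core of SAGA, which is a coactivator of transcription. RNA made during a pulse of 4-thiouridine (TT-seq) was purified and sequenced, with labelled Schizosaccharomyces pombe RNA added as a spike-in, and the labels name polyA RNA as the molecule. The labels do not say which part of Supt3 was altered, how many clones were used or whether the libraries are separate cultures, so every p-value is set against a spread between libraries that may be only technical.

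Replication-dependent histone genes make the bulk of the H2A, H2B, H3, H4 and linker H1 proteins that package newly copied DNA in S phase. They lie in clusters, mostly lack introns, and their mRNAs end in a conserved stem-loop bound by SLBP in place of a poly(A) tail. Cyclin E-CDK2 acts on NPAT in nuclear histone locus bodies to switch them on together, so in fast-cycling cells such as ES cells they are highly transcribed.

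The Hist1 cluster held 54 members on chromosome 13 between 21715763 and 23934851 of mm10. Its members fell into 2 blocks, with 23 members in the 327914 bases at lower coordinates (21715763 to 22043676) and 31 in the 403802 bases at higher coordinates (23531050 to 23934851). The Hist2 cluster had 10 members on chromosome 3 (96219865 to 96270132), Hist3 had 2 on chromosome 11 (58948920 to 58956830) and Hist4 had 1 on chromosome 6 (136801553 to 136804415). By protein, 6 members encoded linker H1, 18 encoded H2A, 18 encoded H2B, 12 encoded H3 and 13 encoded H4. In GENCODE M21, whose coordinates were the same for 67 of 67 members, 62 members had a model with 1 exon and the other 5 all encoded H2B.

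The 3′ stem-loop is shown because it sets this gene class apart. The pattern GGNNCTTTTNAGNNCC, searched on the sense strand of the annotated transcripts, was found in 44 of 67 members (65.7%) and in 72 of 21901 coding genes (0.329%). Shown in DNA letters, with capitals marking the whole stem-loop, 3 forms covered most of these members.
Form of 26 members of the H1, H2A, H2B and H3 types: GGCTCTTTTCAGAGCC
Form of 7 members, all H4: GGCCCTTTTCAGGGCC
Form of 6 members of the H1, H2B and H3 types: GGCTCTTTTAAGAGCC
The remaining 5 members carried 3 further forms. The H4 type held it in 11 of 13 members and the H2B type in 10 of 18, and a model that ends at its stop codon holds none by its construction.

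Promoters are shown for 3 members on which the results below turn: the H2A gene that passed the test, the most highly expressed H4 gene and the most highly expressed H1 gene per kilobase of exon. RefSeq (GRCm38.p6) gave a promoter of 300 bases (250 before the start and 50 after) for 62 of 67 members. Capitals mark the letters of the promoter motifs named below, each searched on both strands; none of the motifs contains another.
Hist1h2af, chr13:23533625-23533924, plus strand: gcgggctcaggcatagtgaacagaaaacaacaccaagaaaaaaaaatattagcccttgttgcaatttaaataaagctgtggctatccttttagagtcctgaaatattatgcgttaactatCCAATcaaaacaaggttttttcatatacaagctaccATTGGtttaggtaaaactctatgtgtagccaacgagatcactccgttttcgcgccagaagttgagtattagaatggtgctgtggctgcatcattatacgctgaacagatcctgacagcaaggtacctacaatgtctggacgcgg
Hist1h4d, chr13:23581318-23581617, plus strand: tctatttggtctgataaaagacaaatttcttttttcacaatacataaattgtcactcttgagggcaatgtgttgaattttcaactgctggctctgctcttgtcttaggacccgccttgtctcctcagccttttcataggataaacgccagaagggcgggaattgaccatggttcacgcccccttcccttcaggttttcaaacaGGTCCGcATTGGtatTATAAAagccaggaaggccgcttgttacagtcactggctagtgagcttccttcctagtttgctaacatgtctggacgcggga
Hist1h1b, chr13:21780576-21780875, minus strand: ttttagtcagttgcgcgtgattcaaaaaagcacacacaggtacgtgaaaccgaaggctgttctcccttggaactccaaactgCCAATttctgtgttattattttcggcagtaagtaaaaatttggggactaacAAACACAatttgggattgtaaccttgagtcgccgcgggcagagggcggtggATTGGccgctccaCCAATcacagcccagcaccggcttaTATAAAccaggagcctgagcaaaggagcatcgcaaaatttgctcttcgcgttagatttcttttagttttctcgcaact
CCAAT, the letters bound by NF-Y, was in 53 of the 62 promoters (85.5%), against 37.4% of 32851 promoters of the same length. It was in all H1, H2A, H2B and H3 promoters but in 3 of 12 H4 promoters. GGTCCG, the core of the H4 box bound by HINFP, was in 11 of 12 H4 promoters (91.7%), against 8.25% of all promoters. AAACACA, known as the H1 box, was in 5 of 6 H1 promoters (83.3%), against 7.18%. ATTTGCAT, the octamer bound by OCT1, was in 7 of 18 H2A and 7 of 16 H2B promoters and in none of the H1, H3 and H4 promoters, against 1.74%. TATAAA was in 35 of 62 (56.5%), against 13.6%. A match describes the letters and not a bound site.

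Mouse genes held 13.1 and 18.4 M counts (M, 1e6) in KO libraries 1 and 2 and 13.5 and 19.4 M in WT libraries 1 and 2. Each mouse gene was expressed as counts per 1e6 mouse counts scaled by TMM (CPM), and a second scale used the S. pombe counts. Mouse counts per S. pombe count were 2.71 and 4.86 in KO libraries and 3.25 and 5.6 in WT libraries, so on the spike-in scale the libraries of 1 genotype differed more than the genotypes did. Supt3 itself had 123 and 140 CPM in KO libraries and 147 and 158 CPM in WT libraries. Both KO libraries lay below both WT libraries, and the difference did not pass the test (log2 fold change of -0.22 ± 0.10 SE, edgeR adjusted p = 0.232). Summed over 9 ES cell markers, which include Pou5f1, Nanog and Klf4, levels were 1151 and 1394 CPM in KO libraries and 1710 and 1790 CPM in WT libraries. Nanog (-0.53, edgeR adjusted p = 0.0362) and Klf4 (-0.87, edgeR adjusted p = 0.00630) were lower in KO cells, and 1 defining marker, Sox2, was listed at 0 in all libraries. The 9 fibroblast markers summed to 44.0 and 36.5 CPM in KO libraries and 40.6 and 32.6 CPM in WT libraries, most of it Fbn1. The part of these differences in the histone values was not tested.

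As a class, histone genes took shares of the nascent RNA that overlapped between the genotypes. The labels name polyA RNA as the molecule, while these mRNAs end in a stem-loop in place of a poly(A) tail. Whether the levels given here and below miss RNA without such a tail was not tested. Their 67 rows together took 0.419% and 0.333% of mouse counts in KO libraries 1 and 2, and 0.391% and 0.343% in WT libraries 1 and 2. On the TMM scale they summed to 3742 ± 446 CPM in KO cells and 3670 ± 274 CPM in WT cells (SD, n = 2 each), a ratio of 1.02. The KO libraries were both the highest and the lowest of the 4, so the genotypes overlapped. Per 1000 S. pombe counts the members had 11.3 and 16.2 counts in KO libraries and 12.7 and 19.2 in WT libraries, a ratio of 0.861 that also overlapped. In bulk libraries a smaller share of cells in S phase and less histone RNA made per cell cannot be told apart.

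Of the 67 members, 55 passed the filter on low counts and were tested. On the TMM scale 1 member was lower in KO cells and 0 were higher, which is 1.82% of the tested members, against 8.07% of the 16789 genes tested (4.02% lower and 4.05% higher). At an unadjusted p under 0.05 there were 7 members (12.7%), against 22.9% of all genes. The median log2 fold change over the tested members was -0.05, beside 0.01 over all tested genes, and 54 of 55 members lay within 0.5 of 0. Both KO libraries lay below both WT libraries for 10 members (18.2%), against 26% of all genes, and above for 3 (5.45%), against 26.7%. On the spike-in scale 0 members passed the edgeR test in either direction, against 0.101% of all genes (0.0953% lower and 0.00596% higher), and 0 had an unadjusted p under 0.05, against 3.78%. Both KO libraries lay below both WT libraries for 6 members (10.9%), against 13.2% of all genes, and above for 0, against 4.1%. There 52 of 55 changes were below 0 with a median of -0.29, beside 78.8% and a median of -0.23 over all genes. The authors' deposited table, scaled by the spike-in, gave fold changes with p-values for 58 members, of which 54 were below 0 and 0 passed, with a median of -0.19. Over the 29514 genes with p-values in the authors' deposited table, 72.5% were below 0, 8 passed and the median was -0.09. That table is labelled as made with a DESeq2 beta prior. Its medians are therefore not the same measure as the edgeR medians on the spike-in scale.

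Which members passed depended on the libraries and the model. Without KO library 2 the edgeR test called 4 members lower and 8 higher, among 16.4% of all genes; the higher ones were Hist1h4a, Hist1h4b, Hist1h4c, Hist1h4d, Hist1h1a, Hist1h2bc, Hist1h2bh and Hist1h3a, and the lower ones Hist1h2af, Hist1h2ag, Hist1h2ah and Hist1h3h. Without KO library 1 the changes of Hist1h2aa and Hist4h4 were -0.76 and -0.39, and without WT library 1 that of Hist1h1t was -0.91. Without WT library 2 the median over the tested members was -0.11. With a term for library depth, which left 1 residual degree of freedom and called 25.7% of all genes, 8 members were lower (Hist1h1t, Hist1h2ab, Hist1h2af, Hist1h2ag, Hist1h2ah, Hist1h3h, Hist1h3i and Hist4h4) and 4 higher (Hist1h1a, Hist1h2bc, Hist1h4a and Hist1h4d).

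**Figure D1:**
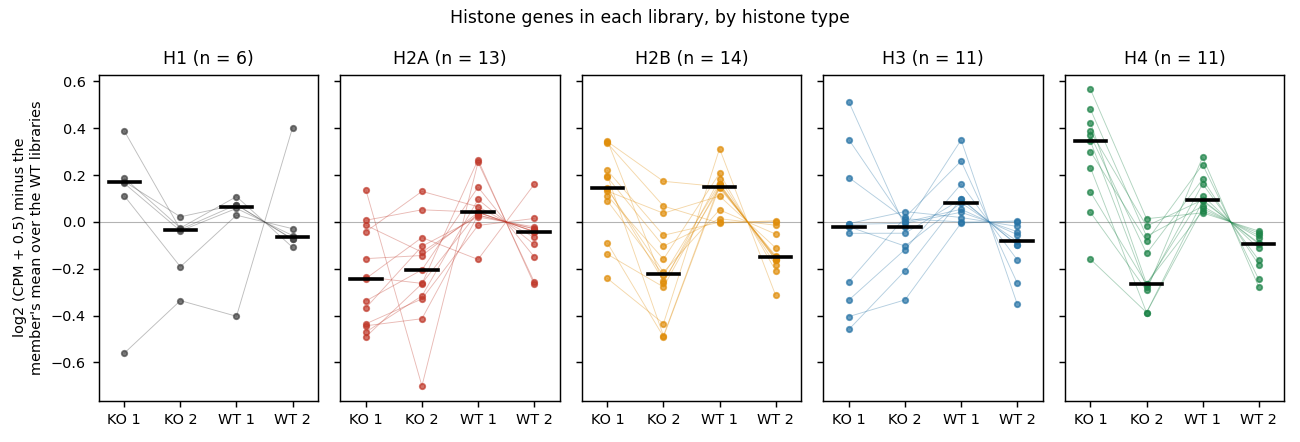
The 55 tested members in each library, by histone type, as log2 of CPM plus 0.5 minus the same member's mean over the WT libraries; points are members, thin lines join a member and thick bars are medians. H2A members lie mostly below 0 in both KO libraries, while H4 members are high in KO library 1 and low in KO library 2, with a median gap of -0.50 between them.

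**Figure D2:**
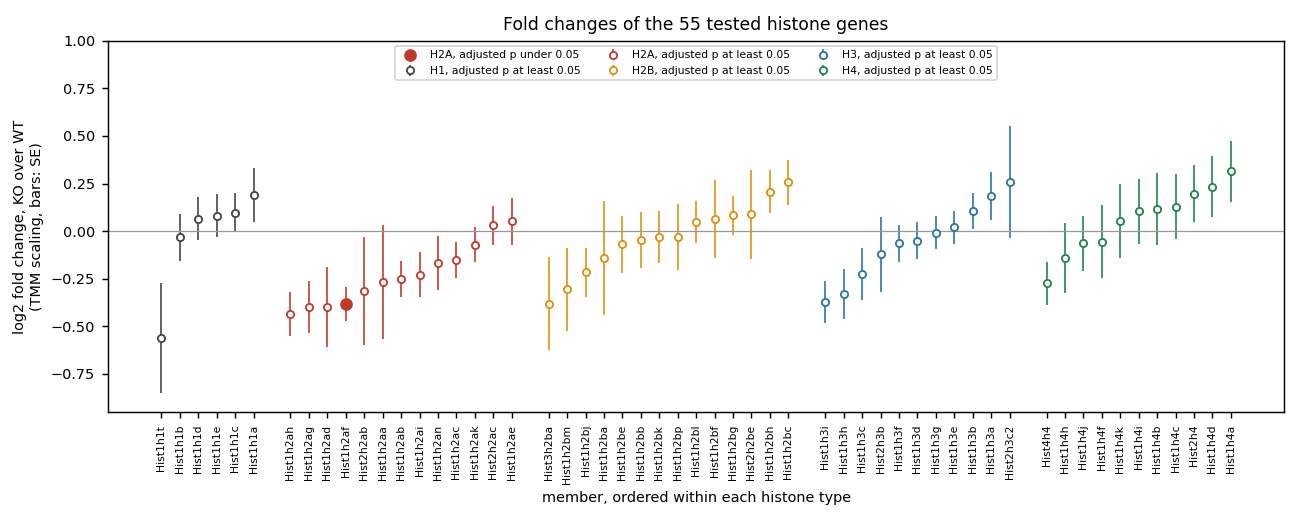
Log2 fold change, KO over WT, of the 55 tested members by histone type, with bars of 1 SE. Points of 11 of 13 H2A members lie below 0, and the filled point is Hist1h2af, the only member that passed the edgeR test on the TMM scale.

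Among the histone types, H2A had the lowest median fold change. H2A pairs with H2B and forms the outer dimers of the nucleosome. On the TMM scale the H2A sum was 368 and 379 CPM in KO libraries and 440 and 421 CPM in WT libraries. That was a ratio of 0.867 with no overlap between genotypes. Per 1000 S. pombe counts it was 1.03 and 1.79 in KO libraries and 1.45 and 2.33 in WT libraries, which overlapped. H2A took 9.07% and 11.1% of the histone counts in KO libraries and 11.4% and 12.1% in WT libraries. Of 13 tested H2A members, 11 had a fold change below 0 (48.9% of all genes did), the median was -0.25, and for 7 (53.8%, against 26%) both KO libraries lay below both WT libraries. The test was passed by 1 H2A member, and 4 had an unadjusted p under 0.05 (30.8%, against 22.9%). These counts are on the TMM scale. On the spike-in scale both KO libraries lay below both WT libraries for 2 of the 13 (15.4%, against 13.2% of all genes). The type as a whole was given no test.

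Hist1h2af, an H2A gene on chromosome 13 (23533906 to 23534304, plus strand), had 54.3 and 58.5 CPM in KO libraries and 72.8 and 74.3 CPM in WT libraries. Both KO libraries lay below both WT libraries, and the gap between genotypes was wider than that within either. Its log2 fold change was -0.38 ± 0.09 SE (edgeR adjusted p = 0.0367). With 1 library left out at a time its change lay between -0.44 and -0.33, and it passed only without KO library 2; it did not pass without KO library 1, WT library 1 or WT library 2. In its gene model 6.0% of the 50-base words occur in no other annotated gene, so its counts depend on how reads shared with other H2A genes were treated.

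Hist1h2ah, whose promoter lies beside that of Hist1h2bk, had 19.8 and 20.3 CPM in KO libraries and 27.7 and 26.6 CPM in WT libraries. The libraries of the genotypes did not overlap, and the change of -0.44 ± 0.11 SE missed the threshold (edgeR adjusted p = 0.0527). It passed with DESeq2 size factors (edgeR adjusted p = 0.0480). Hist1h2ag had 15.6 and 17.4 CPM in KO libraries and 23.3 and 20.3 CPM in WT libraries (-0.40 ± 0.14 SE, edgeR adjusted p = 0.121). Hist1h2ab had 39.9 and 39.2 CPM in KO libraries and 48.4 and 45.7 CPM in WT libraries (-0.25, edgeR adjusted p = 0.163). In both genes the genotypes did not overlap, and in fits to all libraries neither passed without the depth term. With it the edgeR adjusted p was 0.000771 for Hist1h2ah, 0.00707 for Hist1h2ag and 0.0259 for Hist1h2ab. Hist1h2ak, the most highly expressed H2A gene per kilobase at 168 CPM per kb, had 67.0 and 61.8 CPM in KO libraries and 69.1 and 66.3 CPM in WT libraries, which overlapped (-0.07).

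The lower H2A values were seen in both depth classes of library. Between the libraries with fewer counts, 13 of 13 H2A members were lower in KO library 1 than in WT library 1 (median -0.28), against 49.4% of all genes. Between those with more counts, 10 of 13 were lower in KO library 2 than in WT library 2 (median -0.10), against 48.8%. H2A models were also the richest in G and C, with a median of 64.2% beside 53.1% for H1, 55.9% for H2B, 59.9% for H3 and 56.2% for H4. Across the 55 tested members the fold change and the GC content had a Spearman rho of -0.42, and across 16781 tested genes of -0.05; members share libraries and sequence, so this is a description. The part of GC content in the H2A values was not tested.

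Head-to-head gene pairs allowed H2A to be set beside H2B at the same locus. There were 13 divergent pairs with 175 to 659 bases between starts, and 12 of them joined an H2A gene with an H2B gene. In the 9 such pairs with both genes tested, the H2A gene had the lower fold change in 9. These fold changes also enter the medians of the 2 types, and pairs are not replicates. The pairs are therefore a description and no separate support for the lower H2A values. Summed over the 9 pairs, H2A counts per H2B count were 0.422 and 0.523 in KO libraries and 0.535 and 0.587 in WT libraries. Both KO ratios lay below both WT ratios. Pair by pair, the log2 ratio of H2A to H2B was lower in KO cells by a median change of -0.19 (-0.44 to -0.04), and in 2 pairs both KO libraries lay below both WT libraries. These were Hist1h2ah with Hist1h2bk and Hist1h2ac with Hist1h2bc. The Hist1h2ac change was -0.15 and that of its partner Hist1h2bc was 0.26; neither passed.

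Partners in a pair were not listed at like levels per kilobase. Hist1h2ae and Hist1h2bg start 175 bases apart and had 33.7 and 212 CPM per kb. Hist1h2ak had 168 CPM per kb and its partner Hist1h2bn 1.17 CPM per kb from 29 counts over the 4 libraries. Hist2h2ac had 69.2 CPM per kb and Hist2h2be 1.51. In 3 of the 9 tested pairs the H2A gene was the higher per kilobase, and in 6 the H2B gene was.

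H1 linker histones bind the DNA entering and leaving the nucleosome. H1 genes made up the largest part of the histone counts, with 37.6% and 37.0% in KO libraries and 35.8% and 36.7% in WT libraries. H1 models also had the highest median length, with 1236 bases beside 481 for H2A, 569 for H2B, 625 for H3 and 539 for H4. The median share of words found in no other annotated gene was 98.9% for H1. That share was 27.0% for H2A, 53.1% for H2B, 38.0% for H3 and 60.5% for H4. The part of model length and of shared words in the H1 share of counts was not tested. Of the H1 genes, 0 of 6 passed the test. Hist1h1b had the highest level per kilobase of all members at 468 CPM per kb, with 380 and 308 CPM in KO libraries and 358 and 344 CPM in WT libraries (-0.03, edgeR adjusted p = 0.909). Hist1h1a had 360 and 269 CPM in KO libraries and 289 and 261 CPM in WT libraries (0.19, edgeR adjusted p = 0.479). In both genes KO library 1 was the highest and the genotypes overlapped. Hist1h1d had 436 and 379 CPM in KO libraries and 405 and 374 CPM in WT libraries (0.07). Hist1h1c had 214 and 192 CPM in KO libraries and 199 and 180 CPM in WT libraries (0.10), and Hist1h1e had 133 and 115 CPM in KO libraries and 126 and 108 CPM in WT libraries (0.08). Hist1h1t, the testis-specific linker histone, was low, with 4.15 and 4.93 CPM in KO libraries and 4.68 and 8.56 CPM in WT libraries. WT library 2 alone was high, and the change of -0.56 ± 0.29 SE did not pass (edgeR adjusted p = 0.295).

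H2B genes took 16.5% and 16.4% of the histone counts in KO libraries and 16.6% and 15.8% in WT libraries, and 0 of 14 tested members passed the test (median -0.03, 8 below 0). Hist1h2bl, at 232 CPM per kb, had 99.2 and 80.8 CPM in KO libraries and 87.7 and 86.0 CPM in WT libraries. Hist1h2bg had 139 and 130 CPM in KO libraries and 137 and 117 CPM in WT libraries. Hist1h2bb had 78.4 and 59.3 CPM in KO libraries and 78.2 and 64.0 CPM in WT libraries. The genotypes overlapped in all of these. Hist1h2bc and Hist1h2bh were the 2 H2B members with both KO libraries above both WT libraries. Hist1h2bc had 109 and 97.2 CPM in KO libraries and 95.7 and 77.6 CPM in WT libraries (0.26, edgeR adjusted p = 0.239), and Hist1h2bh had 57.2 and 47.4 CPM in KO libraries and 45.1 and 45.4 CPM in WT libraries (0.21, edgeR adjusted p = 0.317).

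H3 genes, whose protein forms the nucleosome core with H4, summed to 596 and 582 CPM in KO libraries and 629 and 575 CPM in WT libraries, with 0 of 11 tested members passing (median -0.05). Hist1h3g, the highest H3 gene per kilobase at 188 CPM per kb, had 99.4 and 99.7 CPM in KO libraries and 103 and 97.2 CPM in WT libraries. Hist1h3e had 86.8 and 90.0 CPM in KO libraries and 88.4 and 86.1 CPM in WT libraries. The values of both genes overlapped between genotypes. Hist1h3b had 94.4 and 83.5 CPM in KO libraries and 82.8 and 82.7 CPM in WT libraries, with KO above WT by little (0.10). Among the H3 genes Hist1h3i had the lowest fold change, with 23.0 and 24.1 CPM in KO libraries and 30.4 and 30.6 CPM in WT libraries. Its genotypes did not overlap, and the change of -0.37 ± 0.11 SE did not pass (edgeR adjusted p = 0.0766); it was named after its values were seen.

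H4 genes varied most between the KO libraries. They summed to 897 and 636 CPM in KO libraries 1 and 2, and 771 and 653 CPM in WT libraries 1 and 2, and 0 of 11 tested members passed (median 0.10). The median gap between the KO libraries (library 2 minus library 1) was -0.50 on the log2 scale, and that between the WT libraries was -0.19. Between the libraries with fewer counts 2 of 11 H4 members were lower in KO, and between those with more counts 6 of 11 were. Without KO library 1 the H4 median was -0.27 and without KO library 2 it was 0.35, so its direction depended on which KO library was used.

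Hist1h4d had the highest level of the H4 genes at 173 CPM per kb, with 252 and 173 CPM in KO libraries and 189 and 172 CPM in WT libraries (0.23 ± 0.16 SE, edgeR adjusted p = 0.443). KO library 1 stood above the other libraries, which were close to each other. Hist1h4b had 75.4 and 46.6 CPM in KO libraries and 57.9 and 54.2 CPM in WT libraries, and Hist1h4k had 55.8 and 36.1 CPM in KO libraries and 49.2 and 39.1 CPM in WT libraries. In both genes KO library 1 was the highest and KO library 2 the lowest. Hist4h4, the single gene of the Hist4 cluster, had 60.9 and 52.0 CPM in KO libraries and 72.5 and 64.0 CPM in WT libraries. Both KO libraries lay below both WT libraries, and its change of -0.27 ± 0.11 SE did not pass (edgeR adjusted p = 0.187).

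By cluster, the median log2 fold change was -0.05 over the 47 tested Hist1 members and 0.06 over the 6 tested Hist2 members. Within Hist1 it was -0.12 over 16 members of the block at lower coordinates and 0.02 over 31 of the block at higher coordinates. In Hist2, Hist2h2ac had 35.8 and 36.9 CPM in KO libraries and 36.7 and 34.6 CPM in WT libraries. Hist2h4 had 36.0 and 27.1 CPM in KO libraries and 29.3 and 25.6 CPM in WT libraries. The other tested Hist2 genes were lower, and none of the 6 passed. Hist2h3b (H3) had 13.6 and 16.6 CPM in KO libraries and 19.7 and 13.6 CPM in WT libraries (-0.12). Hist2h3c2 (H3) had 8.0 and 5.38 CPM in KO libraries and 7.10 and 4.18 CPM in WT libraries, where library 1 was the higher in both genotypes (0.26). Hist2h2be (H2B) had 4.52 and 3.64 CPM in KO libraries and 3.81 and 3.81 CPM in WT libraries, and Hist2h2ab (H2A) had 2.0 and 2.24 CPM in KO libraries and 3.0 and 2.35 CPM in WT libraries. Of these, the genotypes did not overlap in Hist2h2ab, whose change of -0.31 did not pass (edgeR adjusted p = 0.571). In Hist3, Hist3h2ba (H2B) had 6.67 and 5.77 CPM in KO libraries and 10.0 and 6.32 CPM in WT libraries (-0.38 ± 0.25 SE, edgeR adjusted p = 0.411). WT library 1 alone was high, and the change was -0.69 without WT library 2 and -0.034 without WT library 1. Hist1h2aa, an H2A gene known from testis, had 9.41 and 5.04 CPM in KO libraries and 10.2 and 7.05 CPM in WT libraries, so that library 1 was higher in both genotypes.

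**Figure D3:**
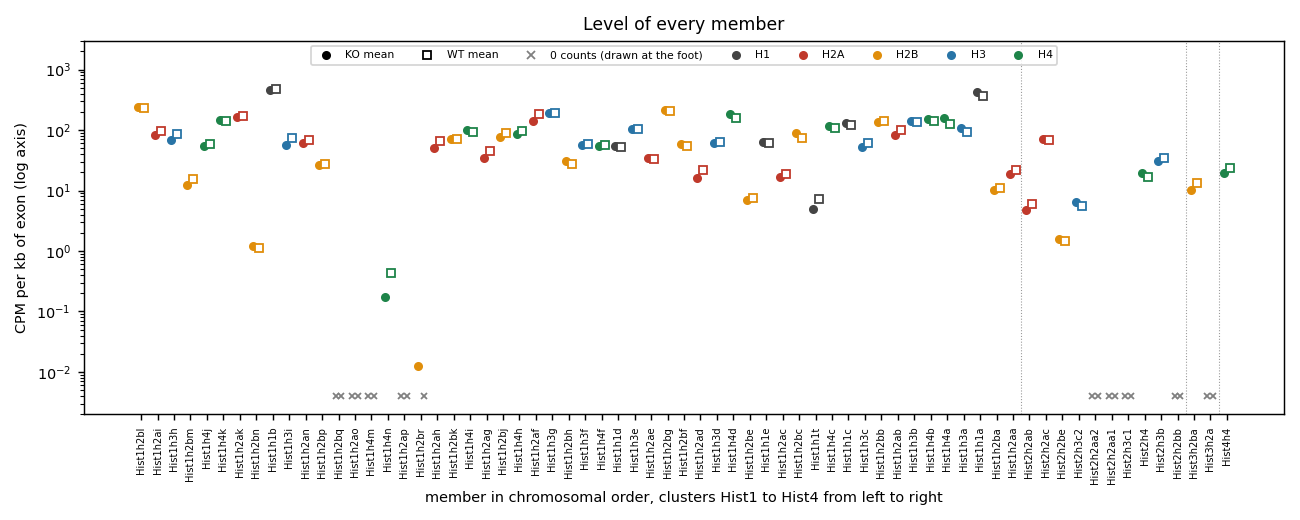
Level of all 67 members in chromosomal order, as CPM per kilobase of exon on a log axis, with the KO mean to the left of the WT mean and crosses where all libraries had 0 counts. Levels of tested members ran between 1.51 CPM per kb for Hist2h2be and 468 for Hist1h1b, and members at 0 counts lay in Hist1, Hist2 and Hist3.

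Among the tested members, levels per kilobase had a median of 64.7 CPM per kb. By type the median was 94.2 for H1, 58.3 for H2A, 42.9 for H2B, 65.8 for H3 and 96.2 CPM per kb for H4. Of the 12 members that were not tested, 9 had 0 counts in all 4 libraries, where 3 counts would be 0.157 to 0.222 CPM. These were Hist1h2ao, Hist1h2ap, Hist1h2bq, Hist1h4m, Hist2h2aa1, Hist2h2aa2, Hist2h3c1, Hist2h2bb and Hist3h2a. The other 3 were Hist1h2br with 1 count, Hist1h4n with 7 and Hist1h2bn with 29 over all libraries.

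A gene listed at 0 here need not be silent, since reads that match several genes may not have been counted. For 11 of the 12 untested members the gene overlapped another on the same strand or shared at least 80% of its 50-base words with 1 other gene, which was so for 7 of the 55 tested members. Hist2h2aa1, Hist2h2aa2, Hist2h3c1 and Hist2h2bb had no word of their own (0%), and Hist1h2bq shared 97.3% of its words with Hist1h2br. Hist3h2a had 68.5% of words of its own and overlapped Trim17 on the same strand. Few words of their own did not always go with low counts. Hist2h3b also had none (0%) and was tested, with the levels given above, and Hist1h3h had 6.08% and 25.8 to 38.2 CPM. Over the 32 tested members with at least 50% of words of their own, the median fold change was -0.03, beside -0.05 over all tested members.

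**Figure D4:**
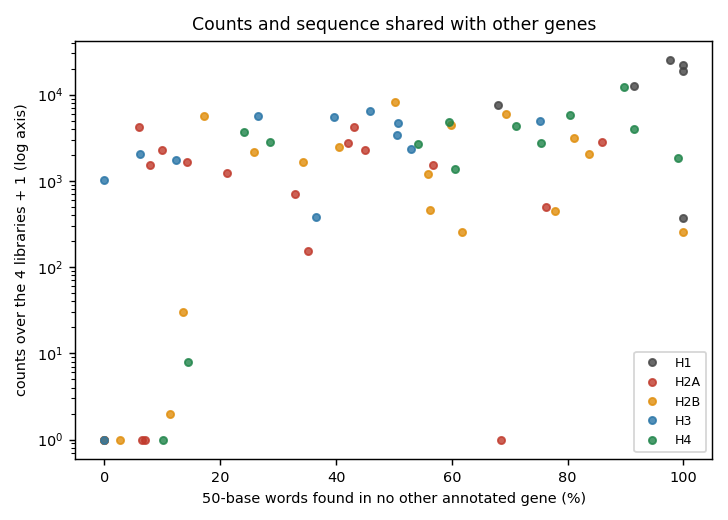
Counts summed over the 4 libraries plus 1, on a log axis, against the share of 50-base words of each gene model that occur in no other annotated gene, coloured by histone type. Members with 0 counts sit at the foot, mostly at shares under 20%, except Hist3h2a at 68.5%.

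Among annotated genes on the opposite strand of members, 17 microRNA rows had 0 to 3 counts each, summed over the 4 libraries, and 5 antisense rows had 31 to 471. The highest sums were those of Gm20633 (471 counts), opposite Hist2h2aa1, and Gm20632 (459 counts), opposite Hist2h2aa2, and both members were listed at 0. Gm20633 had 72 and 112 counts in KO libraries and 125 and 162 in WT libraries. With the strand setting of the counting unknown here, reads of these genes and of the members they overlap cannot be told apart.

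Genes that act on histone transcripts were not called in the main fit. None of 29 factors for histone gene transcription and 3′ processing passed the edgeR test in either direction, against 8.07% of all genes. Of the 29 factors 0 had an unadjusted p under 0.05, against 22.9% of all genes, and their median was 0.01. Npat, the coactivator in histone locus bodies, had 121 and 124 CPM in KO libraries and 121 and 122 CPM in WT libraries (0.01 ± 0.09 SE). Slbp, which binds the stem-loop shown above, had 81.5 and 75.2 CPM in KO libraries and 78.4 and 84.4 CPM in WT libraries (-0.06). Both genes overlapped between genotypes. The most abundant of the list were Pou2f1, which encodes OCT1 (-0.27, edgeR adjusted p = 0.321), and Wdr33, a cleavage factor subunit (-0.04).

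Among 11 tested replication-independent histone genes, 0 passed the edgeR test in either direction, against 8.07% of all genes. An unadjusted p under 0.05 was seen in 4 (36.4%, against 22.9%), and the median over the 11 was -0.16. H2afz, which encodes the variant H2A.Z, came nearest the threshold, with 18.1 and 18.8 CPM in KO libraries and 25.1 and 25.4 CPM in WT libraries (-0.45 ± 0.12 SE, edgeR adjusted p = 0.0504). Both KO libraries lay below both WT libraries; the gene was named after its values were seen. The most abundant of the list, H3f3b and H3f3a, which encode H3.3, had changes of 0.13 and -0.16. Of 28 histone chaperones 0 passed, against 8.07% of all genes (4 unadjusted, 14.3% against 22.9%, median -0.02). The most abundant were Npm1 (-0.09) and Atrx (-0.07).

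Of 43 tested S phase genes 0 passed, against 8.07% of all genes (1 unadjusted, 2.33% against 22.9%, median 0.03). The list summed to 4457 and 4258 CPM in KO libraries and 4403 and 4517 CPM in WT libraries. Pola1 (-0.26) and Dtl (0.09) were the most abundant. Of 47 protein-coding genes that lie between Hist1 members, 8 were tested and 0 passed the edgeR test, against 8.07% of all genes. An unadjusted p under 0.05 was seen in 1 of the 8 (12.5%, against 22.9%), and their median was 0.09. Among them Zfp322a had 81.1 and 81.0 CPM in KO libraries and 71.6 and 72.3 CPM in WT libraries (0.17, edgeR adjusted p = 0.278).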

How the data were processed

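Nascent RNA of 4 libraries was analysed from the authors' deposited tables. Per the submitters' processing notes, the tools were STAR 2.5.3, HTSeq 0.6.1p1, cutadapt 1.10, bcl2fastq 2.20.0.422 and DESeq2 1.16.1, with mm10. Not given in the sources used here are the annotation release, what feature was counted and with which strand setting. The deposited counts are whole reads, not normalized, over 54146 mouse rows and 7259 S. pombe rows, and the mouse ones equal those in the authors' comparison table (100%). That deposited table also holds a normalized signal (counts divided by a size factor), log2 fold changes (KO over WT) and p-values.

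The main test was edgeR 4.0.16 (R 4.3.3) quasi-likelihood with TMM on genes kept by filterByExpr (minimum count 10). It had Benjamini-Hochberg adjustment over 16789 genes and a threshold of 0.05. The second test scaled libraries by S. pombe totals times their TMM factors. Sums per S. pombe count used the plain totals. SE was taken as the log2 fold change over the root of F. The biological coefficient of variation was 0.0952 on the TMM scale and 0.363 on the spike-in scale. DESeq2 1.42.0 and limma 3.58.1 gave alternatives. CPM per kb divides by the exon length of GENCODE M21, and words of 50 bases were compared over its transcripts on both strands. Promoter motifs were searched in RefSeq promoters on both strands and counted apart.

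Members and gene lists were chosen with earlier results of these data known. Named were members that passed on the TMM scale, the 3 most abundant per kb of each type, all Hist2, Hist3, Hist4 and H1 members, the 3 with the largest gap between libraries of 1 genotype among those of at least 5 CPM, called genes of each list or else its 2 most abundant, and Supt3; others were named after their values were seen. Replicates were numbered in accession order and pair nothing. Chi-square per degree of freedom was 9.62 between KO libraries and 5.55 between WT libraries, so neither pair was 1 library sequenced again. This check cannot tell whether the libraries came from separate cultures. Depth was 17.9 and 22.2 M counts (M, 1e6), both species together, in KO libraries and 17.7 and 22.9 M in WT libraries; floors of 3 counts cover counting error only.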

Additional observations from a re-analysis of the deposited data

How the results depend on the processing

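The labels give no replicate numbers that pair the libraries, so none were paired by origin. The term for library depth grouped KO library 1 with WT library 1 and KO library 2 with WT library 2, by depth only. Of 297 alternative fold changes of named members, 242 kept their direction and their side of the threshold and 39 reversed. A call was lost in 5 and gained in 11. Of 246 alternative counts, medians and sums, 199 were taken as unmoved and 47 as moved. A median or sum was taken as unmoved if it shifted by less than the spread between libraries, even where its sign turned. Counts were taken as unmoved if they stayed the same or nearly so. Where a value moved, the cause was not tested. Members called lower numbered 1 in the main fit, 2 with DESeq2 size factors, without a low-count filter and with a minimum mean of 2 CPM, and 0 with DESeq2's own test (smallest adjusted p 0.0974, 3 unadjusted p under 0.05) and with the spike-in. Of all genes tested, 8.07% were called in the main fit, 8.32% with DESeq2 size factors, 8.34% without the filter and 9.06% with the minimum mean. DESeq2's own test called 6.99% of all genes and the spike-in fit 0.101%. A term for library depth, with 1 residual degree of freedom, called 8 members lower and 4 higher, among 25.7% of all genes. Replication-independent histone genes called lower were 2 with DESeq2 size factors, 3 without the filter, 1 with the minimum mean, and 3 (with 1 higher) with the depth term. The depth term also called 4 chaperones lower and 1 higher, 1 expression factor lower and 1 higher, 3 S phase genes lower and 1 Hist1 neighbour higher; without the filter 1 neighbour was called higher.

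On the spike-in scale the median was -0.29 over all members, -0.17 for H1, -0.48 for H2A, -0.27 for H2B, -0.26 for H3, -0.19 for H4, -0.30 for Hist1 and -0.18 for Hist2, beside a shift of -0.23 over all genes. With 1 library left out, the spike-in median over members ran from -0.54 without KO library 2 to 0.023 without WT library 2. Of the 23 tested members above 0 on the TMM scale, 20 were below 0 on the spike-in scale, and 0 turned the other way. Those among the members named by rule were Hist1h1a (-0.079), Hist1h1c (-0.14), Hist1h1d (-0.18), Hist1h1e (-0.15), Hist1h2bg (-0.14), Hist1h2bl (-0.22), Hist1h3b (-0.15), Hist1h3e (-0.20), Hist1h4b (-0.19), Hist1h4d (-0.055), Hist1h4k (-0.22), Hist2h2ac (-0.19), Hist2h2be (-0.18) and Hist2h4 (-0.065). The summed level, KO over WT, was 0.861 per S. pombe count. Without the filter Hist1h3g was at 0.0043.

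Leaving out 1 library at a time left 1 genotype with 1 library and moved the number of members called, most so without KO library 2. Ranges of medians were -0.14 to 0.11 over all members, -0.036 to 0.17 for H1, -0.29 to -0.15 for H2A, -0.22 to 0.15 for H2B, -0.14 to 0.032 for H3, -0.27 to 0.35 for H4 -0.16 to 0.11 for Hist1 and -0.054 to 0.13 for Hist2. Calls among chaperones, expression factors, replication-independent histone genes, S phase genes and Hist1 neighbours also moved with the library left out. Log2 fold changes that turned sign ranged from -0.033 to 0.39 for Hist1h1a, -0.19 to 0.11 for Hist1h1b, -0.039 to 0.17 for Hist1h1d, -0.028 to 0.19 for Hist1h1e, -0.76 to 0.14 for Hist1h2aa, -0.26 to 0.15 for Hist1h2bb, -0.024 to 0.19 for Hist1h2bg, -0.10 to 0.19 for Hist1h2bl, -0.0057 to 0.045 for Hist1h3e, -0.048 to 0.027 for Hist1h3g, -0.27 to 0.43 for Hist1h4b, -0.062 to 0.48 for Hist1h4d, -0.29 to 0.35 for Hist1h4k, -0.011 to 0.067 for Hist2h2ac, -0.065 to 0.25 for Hist2h2be, -0.38 to 0.15 for Hist2h3b, -0.10 to 0.66 for Hist2h3c2 and -0.017 to 0.40 for Hist2h4. With 2 libraries a genotype, an interval for a change near 0 remains wide, and a missed threshold does not show that levels were alike.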
